A study of Mus musculus with 8 samples.

Results

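*Lrrn3*, *Tacr3*, *Lmntd1* and *Adgra1* are 4 protein-coding genes whose transcripts fell steeply in brain endothelial cells (ECs) of mouse pups that express mutant MAP2K1. They were matched by symbol among the 49315 gene identifiers counted, and all 4 passed the filter on low counts that left 16887 genes. They had been chosen for large decreases from well measured wild-type counts, so their fold changes are given below as a description without a test. The data came from whole brains of 4 mutant and 4 wild-type pups at postnatal day 9 (P9), from which ECs were pulled down with beads carrying an antibody against CD31, and each pup gave 1 RNA library. Mutant pups were R26 GT-Map2k1-GFP/+; Tg-Cdh5CreER+/-, in which tamoxifen at P1 lets a Cre recombinase, made under the endothelial *Cdh5* promoter, switch on a *Map2k1* cDNA with the K57N change behind a strong CAG promoter. The recombined allele was found in a minority of the isolated ECs, so a mutant library mixes recombined and unrecombined cells. In these mixed libraries the 4 genes kept 4.54% to 9.17% of the wild-type level. How the decrease divides between recombined and unrecombined cells was not tested. The controls were tamoxifen-treated pups that the labels call wild type, although the study's list of decreased genes names its control as a pup with the Cre transgene. The comparison asks how the transcriptome of brain ECs differs when active MAP2K1, the kinase that phosphorylates ERK, is made in some of them.

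Leucine-rich repeat neuronal protein 3, the product of *Lrrn3*, is a single-pass membrane protein whose outer part carries leucine-rich repeats, and its family was named for expression in neurons. *Tacr3* encodes the neurokinin 3 receptor, a G protein-coupled receptor that prefers neurokinin B among the tachykinin peptides and is best known for its part in the hypothalamic control of reproduction. *Adgra1* encodes an orphan adhesion G protein-coupled receptor. Its close relative *Adgra2* (Gpr124) acts with *Reck* to pass Wnt7 signals from neural cells to Frizzled receptors on brain ECs, a route that vessels need to enter the brain and keep the blood-brain barrier. *Lmntd1* encodes a protein with a lamin tail domain, the fold found at the end of the nuclear lamins, and less is known of its function.

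The genes lie on 4 chromosomes of GRCm38. *Lrrn3* (ENSMUSG00000036295) spans 41451673 to 41485751 on the minus strand of chromosome 12, inside the span of *Immp2l* on the other strand. *Tacr3* (ENSMUSG00000028172) spans 134829007 to 134934579 on the plus strand of chromosome 3. *Lmntd1* (ENSMUSG00000054966) spans 145365134 to 145614319 on the minus strand of chromosome 6, and *Adgra1* (ENSMUSG00000025475) spans 139834174 to 139878088 on the plus strand of chromosome 7. RefSeq promoter windows of GRCm38.p6, from 250 bases before to 50 bases after a transcript start, were matched for 3 of the 4 genes. All 4 genes were chosen for large decreases, so their fall together between the groups was fixed by that choice. Shared regulation of the 3 genes was not tested. The windows are chr3:134828757-134829056 (plus strand) for *Tacr3*, chr6:145434876-145435175 (minus strand) for *Lmntd1* and chr7:139833924-139834223 (plus strand) for *Adgra1*. The start used for *Lmntd1*, at 145434925, lies inside the counted gene, whose annotated span begins upstream of it. Capitals mark an ETS core, a TATA box or a TCF/LEF core.
Tacr3: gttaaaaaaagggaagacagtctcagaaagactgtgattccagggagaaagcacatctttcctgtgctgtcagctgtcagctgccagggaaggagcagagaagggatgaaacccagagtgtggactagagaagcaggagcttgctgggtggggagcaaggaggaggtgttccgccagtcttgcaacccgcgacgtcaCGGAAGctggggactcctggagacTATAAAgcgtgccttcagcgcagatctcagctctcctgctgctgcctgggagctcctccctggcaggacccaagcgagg
Lmntd1: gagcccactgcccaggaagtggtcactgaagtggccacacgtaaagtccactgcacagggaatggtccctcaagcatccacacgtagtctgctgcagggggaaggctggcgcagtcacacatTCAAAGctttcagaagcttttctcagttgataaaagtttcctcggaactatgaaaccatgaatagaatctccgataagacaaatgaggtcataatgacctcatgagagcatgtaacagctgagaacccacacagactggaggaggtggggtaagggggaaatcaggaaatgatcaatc
Adgra1: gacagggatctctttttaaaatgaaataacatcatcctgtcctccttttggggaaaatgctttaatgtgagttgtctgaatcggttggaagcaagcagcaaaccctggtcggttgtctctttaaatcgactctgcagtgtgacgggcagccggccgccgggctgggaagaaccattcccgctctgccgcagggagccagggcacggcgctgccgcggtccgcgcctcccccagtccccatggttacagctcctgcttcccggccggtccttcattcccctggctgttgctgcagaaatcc
None of the 7 motifs searched on both strands was found in all 3 windows. The ETS core was searched only in the form CGGAAG, and other forms of it were not looked for. That form occurred once, in the *Tacr3* window from position -53, against 16.9% of all 32851 windows. A TATA box (TATAAA, in 13.6% of windows) began at position -29 of the same window. The TCF/LEF core CTTTGA (16.0%) was found once, on the opposite strand of the *Lmntd1* window from position -128. The E-box CANNTG (72.3%) occurred at 2 places in the *Tacr3* window and at 3 in that of *Lmntd1*, and at none in that of *Adgra1*. The AP-1 motif TGANTCA (7.81%), the forkhead motif TGTTTAC (3.65%) and the GC box GGGCGG (35.7%) were in none of the 3. The *Adgra1* window held 17 CpG dinucleotides, that of *Tacr3* 8 and that of *Lmntd1* 5, around a median of 7 for all windows. A match is a stretch of letters and not a shown binding site.

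Between 24833373 and 34196955 reads were counted on genes per library. Normalized counts below are counts scaled by edgeR's TMM factors to the mean library size. *Map2k1*, whose reads include those of the transgene, averaged 14619 ± 2851 normalized counts in the mutant group and 1611 ± 116 in the wild-type group (SD, n = 4 each) without overlap, which checks the labels. The 12 endothelial markers were all tested, and their summed level was 517879 to 663633 normalized counts in mutant and 419442 to 506216 in wild-type libraries. *Vwf* (78708 ± 7796 in wild-type, 174907 ± 28563 in mutant ECs) and *Cdh5* (36246 ± 2568 and 78095 ± 12581, SD, n = 4 each) were called higher and lead that difference, none was called lower, and *Kdr*, *Tek* and *Cldn5* lay lower in mutant libraries without overlap. Over all 16887 genes tested, 14.0% were called differentially expressed by edgeR's quasi-likelihood test, which took a Benjamini-Hochberg adjusted p under 0.05 together with a log2 fold change beyond 1 in either direction. Of the genes tested, 8.05% were called lower and 5.90% higher in mutant ECs. At any fold change 44.4% passed the limit on p. Every mutant library lay below every wild-type library for 21.9% of the genes tested. The 4 genes met the call for a decrease and did not overlap between the groups, as their choice required, so nothing is read from that count.

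*Lrrn3* had 1476, 1449, 1335 and 1574 normalized counts in wild-type libraries 1 to 4. In mutant libraries 1 to 4 it had 21.5, 64.1, 134 and 45.3. The wild-type values were close together, while the mutant values spread 6.23-fold, with the first library lowest and the third highest. The mean fell from a wild-type 1459 ± 98.5 to 66.3 ± 48.5 (SD, n = 4 each), which left 4.54% of the wild-type level. The log2 fold change was -4.46 (standard error, SE, 0.37), or 21.9-fold lower. Even the highest mutant library was 9.96-fold below the lowest wild-type library. In bulk RNA, fewer cells that express a gene and less RNA in each of them cannot be told apart, and this holds for all values here.

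*Tacr3* had 227, 230, 215 and 215 normalized counts in wild-type libraries 1 to 4. It had 12.7, 13.3, 26.6 and 10.4 in mutant libraries 1 to 4. The wild-type spread was the narrowest of the 4 genes, with a coefficient of variation (SD over mean) of 3.51%. The mean fell from a wild-type 222 ± 7.78 to 15.7 ± 7.34 (SD, n = 4 each, log2 fold change -3.82, SE 0.26), which left 7.10%. The raw counts behind the mutant values were 10, 12, 24 and 12. Exact 95% Poisson intervals of these raw counts cover counting error only. They run from 4.80 to 18.4 for the lowest raw count and from 15.4 to 35.7 for the highest. An overlap of such intervals does not decide the order of the mutant libraries, which was not tested.

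*Lmntd1* had 339, 460, 364 and 398 normalized counts in wild-type libraries 1 to 4. Its values in mutant libraries 1 to 4 were 15.2, 45.3, 48.8 and 32.2. The first mutant library was again lowest and the third highest. The mean fell from a wild-type 390 ± 52.2 to 35.4 ± 15.2 (SD, n = 4 each, log2 fold change -3.45, SE 0.28), leaving 9.07%. *Adgra1* had 175, 160, 122 and 174 normalized counts in wild-type and 7.60, 18.8, 16.6 and 14.8 in mutant libraries 1 to 4. The first mutant library was lowest here too, on 6 raw counts with an exact 95% Poisson interval of 2.2 to 13.1. The mean fell from a wild-type 158 ± 24.8 to 14.5 ± 4.85 (SD, n = 4 each, log2 fold change -3.42, SE 0.26), leaving 9.17%.

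**Figure D1:**
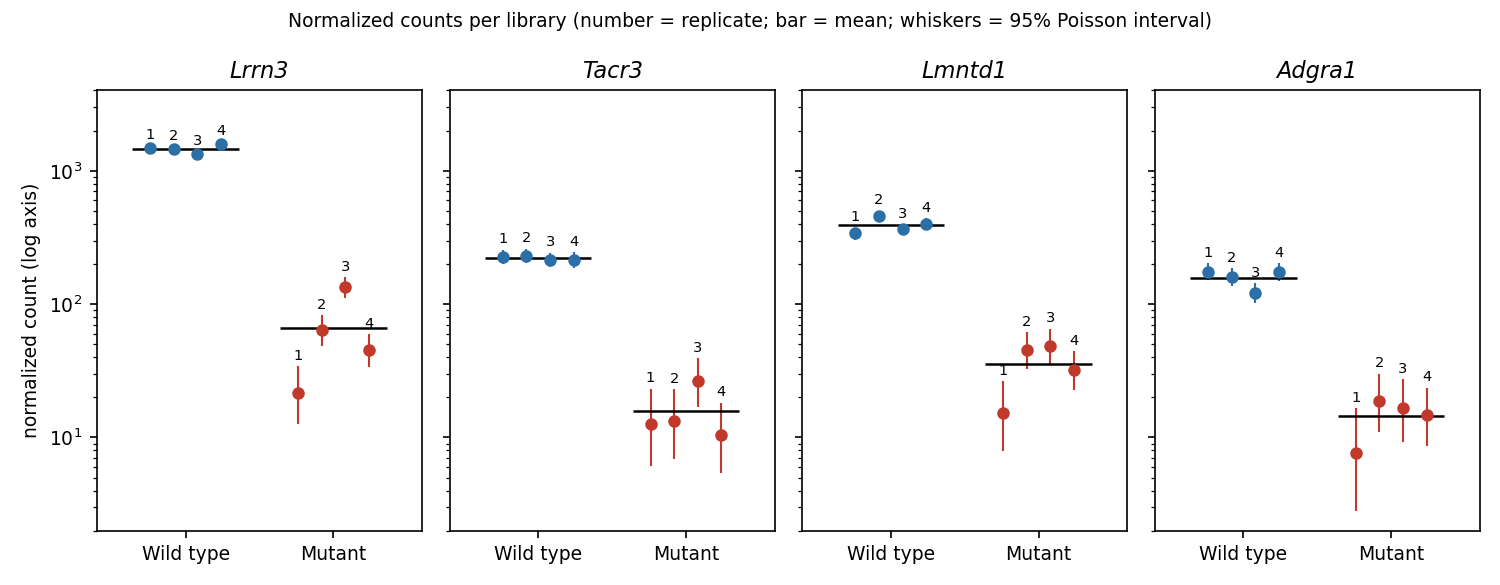
Normalized counts (log axis) of each gene in the 4 wild-type (blue) and 4 mutant (red) libraries, numbered by replicate, with group means as bars and exact 95% Poisson intervals as whiskers. All mutant points lie below all wild-type points, and mutant library 1 is lowest for *Lrrn3*, *Lmntd1* and *Adgra1*.

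Levels of different genes were compared as CPM (counts scaled to the library total) per kilobase of exon. On this scale wild-type ECs held 15.7 ± 0.694 (SD, n = 4) of *Lrrn3*, above 80.8% of the genes tested. *Tacr3* followed with 2.02 ± 0.0648, then *Lmntd1* with 1.73 ± 0.215 and *Adgra1* with 1.00 ± 0.133 (SD, n = 4 each). The median of all tested genes was 3.41, so the latter 3 were expressed below the typical gene. *Tacr3* (lowest library 1.93) and *Lmntd1* (highest library 2.00) overlapped between libraries and were not separated, while the gaps above and below that pair exceeded the spread. In mutant ECs the level was 0.697 ± 0.524 for *Lrrn3*, 0.152 ± 0.0673 for *Lmntd1*, 0.139 ± 0.0681 for *Tacr3* and 0.0891 ± 0.0308 for *Adgra1* (SD, n = 4 each). *Lrrn3* had the highest level of the 4 in each mutant library as well, and the other 3 overlapped.

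The sample labels carry 3 prefixes, of which the first covers replicates 1 and 2 of both groups, another replicate 3 and the last replicate 4. The study drew its wild-type pups from the litters of the mutants in equal number, a layout the prefixes share, but what the prefixes stand for is not given in the sources used here. Each of the 4 genes was lower in the mutant than in the wild-type libraries within every prefix. The decrease was smallest in the prefix of replicate 3, at 9.96-fold for *Lrrn3*, 8.09-fold for *Tacr3*, 7.47-fold for *Lmntd1* and 7.33-fold for *Adgra1*. In the prefix of replicate 4 the same genes were 34.8-fold, 20.6-fold, 12.3-fold and 11.8-fold lower, and in that of replicates 1 and 2 they were 34.2-fold, 17.6-fold, 13.2-fold and 12.7-fold lower. With mutant replicate 3 left out, the fold change of *Lrrn3* moved from 21.9 to 32.7 and that of *Tacr3* from 14.1 to 18.2.

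Among the 11393 genes that averaged 100 or more normalized counts in wild-type ECs, 685 were called lower and 8 of these fell by more than 10-fold. Ranked by fitted log2 fold change, *Lrrn3* was first, *Tacr3* 3, *Lmntd1* 5 and *Adgra1* 6. The genes ranked between and just after them were *Cntn2* (-3.87, standard error 1.05), *Neurod1* (-3.71, standard error 1.07), *Stra6* (-3.42, standard error 0.44), *Dcx* (-3.36, standard error 0.75) and *Sept3* (-3.31, standard error 0.55). *Cntn2* encodes an axonal adhesion molecule, *Neurod1* a neuronal transcription factor and *Dcx* a microtubule protein of migrating neurons, while *Stra6* encodes a receptor for vitamin A transport. Standard errors of the 4 genes were 0.26 to 0.37. *Cntn2* and *Neurod1* overlapped between the groups, since wild-type library 4 had 15 raw counts of *Cntn2* and 6 of *Neurod1* where wild-type library 3 had 990 and 554. The distance between *Adgra1* and *Stra6* was far below either standard error.

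**Figure D2:**
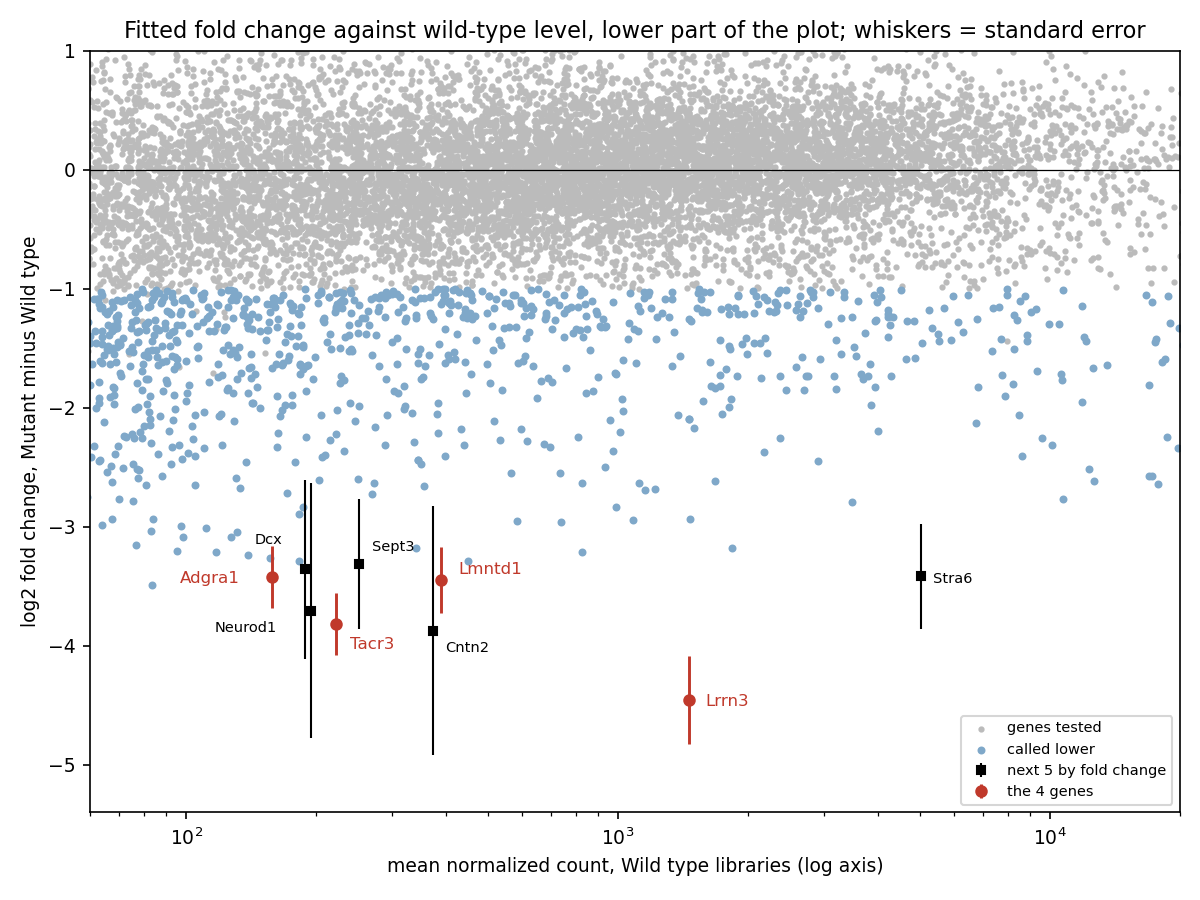
Fitted log2 fold change (mutant minus wild type) against the mean wild-type normalized count (log axis), with the 4 genes in red, the 5 genes ranked next in black and standard errors as whiskers. The drawing leaves out the lowest and highest wild-type means and fold changes above 1, and *Cntn2* and *Neurod1* have the longest whiskers.

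*Tacr3* and *Lrrn3* are genes of neurons as well, so markers of other cell types were measured in the same libraries. Of 13 neuron markers tested, 8 were called lower and 2 higher, where 8.05% and 5.90% of all genes were. Their summed level was 1156 to 2005 normalized counts in mutant and 1567 to 3955 in wild-type libraries. *Rbfox3*, which marks most mature neurons, did not pass the test (adjusted p = 0.0514, edgeR) and averaged 294 ± 67.4 in the mutant and 129 ± 95.2 in the wild-type group (SD, n = 4 each). Of the 13 neuron markers, 11 had a wild-type coefficient of variation above the 15.8% of *Adgra1*, the highest of the 4 genes. The median over all genes averaging 100 or more normalized counts in wild-type ECs was 8.65%. *Tacr3* (3.51%) and *Lrrn3* (6.75%) lay below that median, and *Lmntd1* (13.4%) and *Adgra1* above it. The 4 genes were chosen from well measured wild-type counts, so nothing is read from their narrower spread. *Neurod1* ranged 75.7-fold over the wild-type libraries, against 1.07-fold to 1.44-fold for the 4 genes. Wild-type library 4, which had the lowest *Neurod1*, had the highest *Lrrn3* and also the highest *Gad1*, at 192 normalized counts. The markers with a coefficient below that of *Adgra1* were *Gad1* and *Stmn2*, of which *Gad1* had a wild-type coefficient of 6.83%. *Gad1*, which encodes an enzyme that makes GABA, fell from a wild-type 178 ± 12.2 to 32.0 ± 10.9 (SD, n = 4 each), to 18.0% of the wild-type level. *Stmn2*, a microtubule regulator of growing axons, fell to 43.2%. The markers called higher encode neurofilament subunits, *Nefm* with 65.97 ± 26.8 in wild-type and 258 ± 150 in mutant ECs and *Nefl* with 37.8 ± 25.9 and 210 ± 125 (SD, n = 4 each).

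Against the same shares of all genes, 8.05% lower and 5.90% higher, 9 of the 10 oligodendrocyte lineage markers were called lower. Their sum was 2721 to 4142 normalized counts in mutant and 4620 to 11282 in wild-type libraries. *Sox10*, a transcription factor of that lineage, kept the smallest share of them, at 11.8%. Wild-type library 4 held 4620 of this sum and library 1 held 11282, whereas *Lrrn3* had 1574 and 1476 there. All 6 red blood cell markers were called lower (2582 to 8473 against 15764 to 27354), as were 1 of 8 astrocyte markers (18565 to 22252 against 11079 to 13162, a sum led by *Gja1*) and 1 of 6 choroid plexus markers, of which 1 was higher (3645 to 7643 against 3636 to 18674). Among 12 pericyte and smooth muscle markers 1 was higher and none lower (25434 to 43067 against 23140 to 44086). Of 5 fibroblast markers (31272 to 40541 against 27263 to 36400) and 9 microglia and macrophage markers (4739 to 17026 against 5304 to 19035) none was called. No marker of these lists was at 0 in all libraries of a group. The part of the other cell types in the decreases of the 4 genes was not tested beyond these values.

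**Figure D3:**
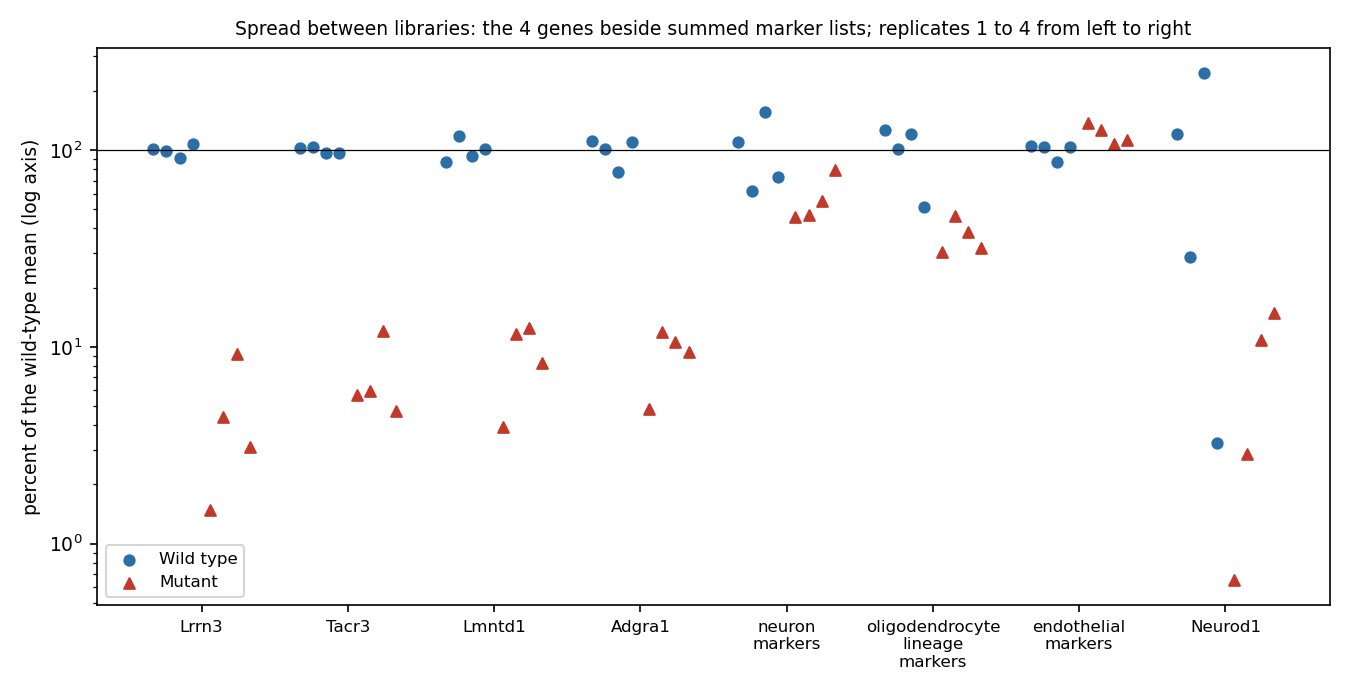
Level of each gene, of the summed neuron, oligodendrocyte lineage and endothelial markers and of *Neurod1*, as a percent of its wild-type mean (log axis), for wild-type (blue circles) and mutant (red triangles) replicates 1 to 4 from left to right. The wild-type circles of the 4 genes stay between 77.3% and 118%, while those of *Neurod1* run far apart and overlap the mutant triangles.

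Most of the tested partners of the neurokinin 3 receptor were not called, and the few called moved in different directions. The tachykinin list held 18 other genes for ligands, receptors, degrading peptidases and the Gq signalling steps after the receptor, of which 14 were tested, 1 was called lower and 2 higher, 21.4% in all against 14.0% of all genes. Its median log2 fold change was 0.04, against -0.02 over all genes tested. *Tacr1*, the receptor for substance P, was almost absent from wild-type ECs with raw counts of 0, 1, 0 and 2 in libraries 1 to 4. It had raw counts of 37, 30, 17 and 120 in mutant libraries 1 to 4, all higher than in any wild-type pup. With wild-type libraries set to a floor of 3 counts, its level was higher in mutant ECs by at least 17.9-fold. The call came from edgeR's quasi-likelihood test on the counts without that floor (adjusted p = 2.72e-04). *Tacr1* passed the filter on low counts through its mutant libraries only. The mutant mean was 50.8 ± 37.5 normalized counts (SD, n = 4), with library 4 highest.

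*Mme* (neprilysin), a membrane peptidase that cleaves tachykinins, rose from a wild-type 32.5 ± 11.2 to 299 ± 48.2 (SD, n = 4 each, log2 fold change 3.18, SE 0.24, edgeR adjusted p = 7.2e-06). *Dpp4*, a peptidase that trims dipeptides from the ends of peptides such as substance P, fell from a wild-type 1827 ± 126 to 483 ± 170 (SD, n = 4 each, log2 fold change -1.92, SE 0.21, edgeR adjusted p = 6.8e-05). The third tachykinin receptor and the ligand genes were at the edge of detection and were not tested. *Tacr2* had 10 raw counts over the mutant and 8 over the wild-type libraries, *Tac1* 55 and 18, *Tac2* (neurokinin B) 5 and 4, and *Tac4* 16 and 12. The G protein genes *Gnaq* (log2 fold change 0.02) and *Gna11* (-0.37) were not called. With mutant replicate 3 left out, *Plcb2*, *Arrb1* and *Ece2* were called as well and the count rose from 3 to 6.

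The closest relatives of *Lrrn3* did not move alike. *Lrrn1* fell from a wild-type 242 ± 56.8 to 83.9 ± 20.3 (SD, n = 4 each, log2 fold change -1.53, SE 0.23, edgeR adjusted p = 4.27e-04). *Lrrn2* had 29.5 ± 17.2 and 26.3 ± 8.55 normalized counts (SD, n = 4) in wild-type and mutant libraries and did not pass the test (log2 fold change -0.18, standard error 0.41, adjusted p = 0.747, edgeR), and *Lrrn4* had 1 raw count over all 8 libraries. Of 25 leucine-rich repeat membrane proteins tested out of 37 listed, 9 were called lower, 36% against the 8.05% of all genes, and 2 higher. The lowest of them were *Lrrtm1* (log2 fold change -2.29, standard error 0.45), *Lrrc4b* (-2.22, standard error 0.55) and *Slitrk5* (-1.81, standard error 0.50), which encode adhesion proteins of synapses, and *Flrt1* (-1.73, standard error 0.52). *Lrrtm1* fell to 20.1% of the wild-type level, the smallest share kept in this list. *Lrrn3*, which was chosen for its large decrease, kept 4.54%. *Lrrtm1*, *Slitrk5* and *Flrt1* had 1 to 13 raw counts per mutant library and passed the filter on low counts through their wild-type libraries. They are part of the 36%, and nothing is read from their calls. *Flrt3* (1.23) and *Amigo3* (1.16) were the members that rose. Of the 9 genes that fell, 6 averaged under 100 normalized counts in the wild-type group. Among the 25 tested, 14 had a wild-type coefficient of variation above the 15.8% of *Adgra1*, the highest of the 4 genes. With a minimum count of 50 the list gave 5 calls in place of 11.

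No other tested gene with a lamin tail domain was called lower beside *Lmntd1*. *Lmna*, the A-type lamin, rose from a wild-type 9025 ± 1957 to 19265 ± 4800 (SD, n = 4 each, log2 fold change 1.09, SE 0.19, edgeR adjusted p = 0.00112), without overlap between the groups. *Lmnb1* (-0.05) and *Lmnb2* (-0.25), the B-type lamins, were not called, and *Lmntd2* was not tested, with 16 raw counts over the mutant and 33 over the wild-type libraries. Of the 22 other nuclear lamina and envelope genes tested, none was called lower and 2 higher, 9.09% in all against 14.0% of all genes. The other gene to rise was *Syne3*, a nesprin that ties the nuclear envelope to the cytoskeleton, from a wild-type 48.7 ± 14.1 to 448 ± 137 (SD, n = 4 each, log2 fold change 3.20, SE 0.27). The call of *Lmna* lies near the fold limit, and the list gave 1 call without mutant replicate 4 or without wild-type replicate 2.

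Both relatives of *Adgra1* stayed short of a call, while *Reck* and genes that answer to Wnt signals fell. *Adgra2* averaged 14367 ± 1992 normalized counts in the wild-type and 10401 ± 1039 in the mutant group (SD, n = 4 each, log2 fold change -0.47, SE 0.11, edgeR adjusted p = 0.00671), inside the fold limit for a call. *Adgra3* had 1807 ± 173 and 945 ± 132 (SD, n = 4), a log2 fold change of -0.94 that also missed it. *Reck* fell from a wild-type 3102 ± 401 to 1525 ± 269 (SD, n = 4 each, log2 fold change -1.02, SE 0.13, edgeR adjusted p = 1.80e-04). Of the 19 Wnt7 receptor, transducer and target genes tested, 6 were called lower, 31.6% against the 8.05% of all genes, and none higher. Besides *Reck* these were *Nkd1* (log2 fold change -2.62), *Apcdd1* (-1.99), *Axin2* (-1.49), *Lef1* (-1.46) and *Tcf7* (-1.24), which are known as targets or transcription factors of Wnt signalling. Neither *Fzd4* (0.17) nor *Lrp6* (-0.49), both receptor genes, was called. *Reck* lies near the fold limit, and the list gave 5 calls without mutant replicate 1 or 4 or without wild-type replicate 1 or 4. *Nkd1* kept 16.3% of its wild-type level, and *Adgra1*, which was chosen for its large decrease, kept 9.17%.

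**Figure D4:**
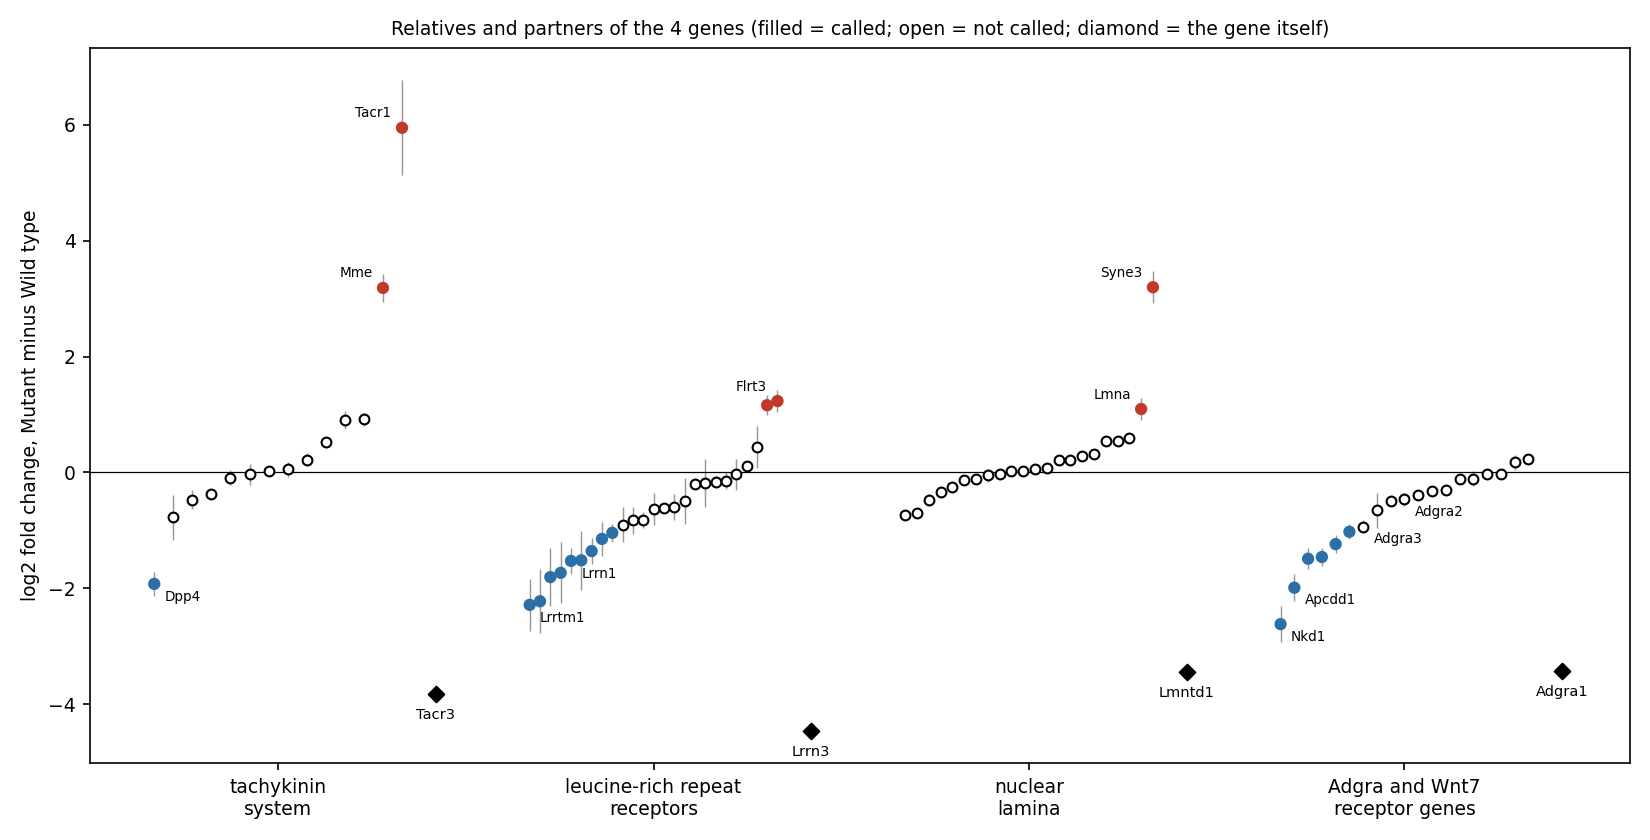
Fitted log2 fold changes with standard errors of the other genes in 4 lists, sorted within each list (red, called higher; blue, called lower; open, not called), beside the gene of interest as a diamond. The diamonds lie lowest, which follows from the choice of the 4 genes for large decreases and is not a result. *Tacr1*, whose fitted value is not a bound, and *Mme*, *Flrt3*, *Amigo3*, *Syne3* and *Lmna* lie above 1.

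The decreases were not shared by most neighbours on the chromosome. Within 500 kb of the 4 genes 32 others were tested. Of these 32, 5 were called lower, where 8.05% of all genes were, and 2 higher, where 5.90% were. Together they made 21.9% against 14.0% of all genes. The median log2 fold change of the 32 was -0.13. *Immp2l*, which encodes an inner mitochondrial membrane peptidase and whose span contains *Lrrn3* on the other strand, had 49.3 ± 3.88 and 32.7 ± 5.54 normalized counts (SD, n = 4) in wild-type and mutant libraries and was not called (log2 fold change -0.59). None of the 6 genes near *Tacr3* was called lower, and *2810428J06Rik*, a transcript of unassigned type, was called higher (1.44). Near *Adgra1*, 2 of the 10 genes tested were called lower, *Cfap46* (-1.55, standard error 0.34) and *Kndc1* (-2.10, standard error 0.53).

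Near *Lmntd1*, 15 genes were tested, of which *Bcat1* (-1.59), an enzyme of branched-chain amino acid breakdown, and the long noncoding *Gm15704* (-1.35) were called lower and *Casc1* (1.08) higher. *1700073E17Rik*, a transcribed pseudogene inside the span of *Lmntd1* on the other strand, was called lower as well. It had raw counts of 14, 22, 33 and 17 in wild-type libraries 1 to 4. In mutant libraries 1 to 4 it had 0, 2, 3 and 2, so it passed the filter on low counts through its wild-type libraries only. With mutant libraries set to 3 counts, it was at least 6.13-fold lower in mutant ECs. The annotated exons of *1700073E17Rik* and *Lmntd1* share 0 bases, as do those of *Immp2l* and *Lrrn3*. The sources used here do not state whether counting used the strand, so reads from unspliced or unannotated sequence of a partner on the other strand cannot be told apart.

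**Figure D5:**
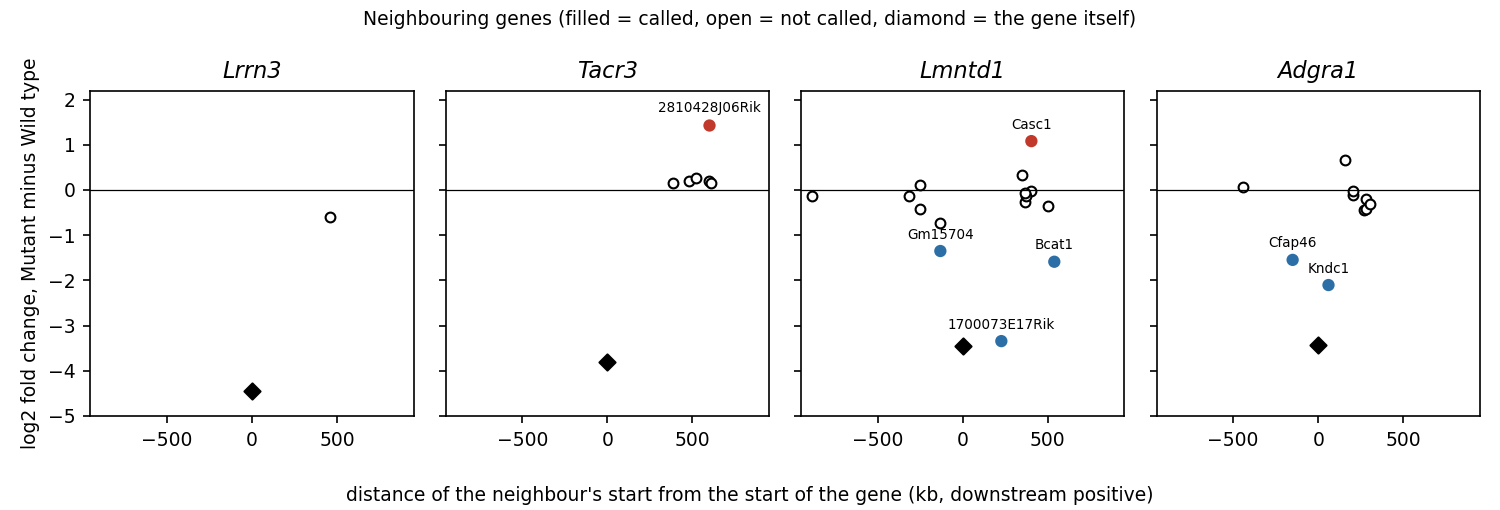
Fitted log2 fold change of every tested gene within 500 kb of each gene, against the distance between starts in kilobases (downstream positive), with called neighbours filled and named and the gene itself as a diamond at 0. The fitted value of *1700073E17Rik*, which is not a bound, lies close to the diamond of *Lmntd1*, and all other neighbours lie well above theirs.

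Over the 8 libraries the 4 genes followed each other closely in log2 CPM. Pearson's r between pairs was 0.97 to 0.99, which the gap between the groups sets. After each group's mean was subtracted, r was 0.89 for *Lrrn3* with *Lmntd1*, 0.86 for *Lmntd1* with *Adgra1*, 0.78 for *Lrrn3* with *Tacr3* and 0.77 for *Lrrn3* with *Adgra1*. It was 0.49 for *Tacr3* with *Lmntd1* and 0.28 for *Tacr3* with *Adgra1*. The 8 points share their libraries and depth, so these values are descriptions. Of 11781 genes whose higher group averaged 100 or more normalized counts, those most like the mean of the 4 genes were *Neo1*, *Plgrkt*, *Fgf13*, *Cbx8* and *Slc7a8*. As 3494 genes had an absolute r over 0.9 with that mean, the likeness is mostly that of the group difference.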

How the data were processed

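Brain ECs of 4 mutant and 4 wild-type pups were analysed, grouped by sample title, 1 library per pup. The authors used Trimmomatic for trimming and STAR for mapping to GRCm38, and deposited whole-number counts per gene, from which all values here were computed. The counting program, annotation release and use of strand are not given in the sources used here. The authors also deposited a normalized signal for 16889 genes, each library's counts divided by 1 DESeq2 size factor. Multiplied by that factor, 100% of its values returned the whole reads within 0.01, and it was not used further. Of 49315 identifiers, 48970 matched a symbol in GENCODE vM21.

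The main analysis used edgeR 4.0.16 under R 4.3.3: TMM scaling, filterByExpr (minimum count 10), glmQLFit and glmQLFTest with no covariate, and Benjamini-Hochberg adjustment over the 16887 genes tested. Standard errors are the absolute log2 fold change divided by the square root of the F statistic. Correlations used log2 CPM with a prior count of 2. On simulated counts for 16887 genes, 196 of 200 genes changed by 3 on the log2 scale and 4 unchanged genes were called. Libraries of a group differed beyond sampling noise (chi-square per degree of freedom 7.30 to 41.6 over 12 pairs), and each was kept as a replicate. Where no library of a group exceeded 3 counts, the fold is a bound at that floor.

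The 4 genes and all lists were chosen with earlier results of these data known. Named besides them are close relatives fixed by family, all called genes of lists with 5 or fewer calls and otherwise the 4 most changed, called or overlapping neighbours within 500 kb, the 5 genes ranked next, and the genes most alike in pattern. Other names (*Amigo3*, *Flrt3*, the G protein genes, the remaining Wnt genes and single markers) were chosen after their values were seen. Alternatives were RLE factors or library totals, DESeq2 1.42.0, no low-count filter or a minimum count of 50, no fold limit, the replicate number or label prefix as a block, and each library left out.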

Additional observations from a re-analysis of the deposited data

How the results depend on the processing

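The log2 fold changes of the 4 genes kept their sign and moved by less than the spread between libraries under all 15 alternatives run for each. Over these they lay between -5.03 and -4.19 for *Lrrn3*, -4.19 and -3.62 for *Tacr3*, -3.63 and -3.22 for *Lmntd1* and -3.56 and -3.23 for *Adgra1*, with the farthest *Lrrn3* and *Tacr3* values without mutant replicate 3. When single libraries were left out, the number of calls was 3 to 6 for the tachykinin list, 8 to 12 for the leucine-rich repeat list, 1 to 2 for the lamina list, 5 to 7 for the Wnt7 list and 6 to 7 for the neighbours, and 1185 to 1541 genes were called lower in all against 1360. Without a limit on the fold change the tachykinin list gave 8 calls, the lamina list 12, the Wnt7 list 13 and the neighbours 11, and 3873 genes were called lower, since that setting also takes small changes. A minimum count of 50 gave 5 calls in the leucine-rich repeat list, 2 among the neighbours and 799 lower genes, since fewer genes were tested, and no low-count filter gave 17 in the leucine-rich repeat list. With the replicate number as a block the log2 fold changes were -4.57, -3.85, -3.49 and -3.43 in the order above, and the calls were 3, 10, 2, 6 and 7 for the lists and neighbours with 1399 lower genes. Same-numbered libraries deviated together with r of 0.0241 to 0.29, under 0.1 for replicate 4, so the numbers were not taken as pairs. With the label prefix as a block the log2 fold changes were -4.54, -3.84, -3.46 and -3.41, and the calls 3, 10, 2, 6 and 7 with 1406 lower genes. Mutant values of *Tacr3* and *Adgra1* rest on 6 to 24 reads per library, which limits their order.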

Other observations

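The mutant library with the highest *Map2k1* was the one with the lowest *Lrrn3*, *Lmntd1* and *Adgra1*. *Map2k1* had 18734, 12692, 12707 and 14342 normalized counts in mutant libraries 1 to 4, while the lowest *Tacr3* was in library 4. *Stra6*, the retinol-binding protein receptor, had 108, 569, 800 and 402 normalized counts in the same libraries, an order from libraries 1 and 4 to 2 and 3 that *Lrrn3* and *Lmntd1* shared. These orders were noticed after the values were seen, and with 4 mutant libraries they were not tested. After the group means were subtracted, the genes most like the mean of the 4 were *Nlrx1*, *Mfap2*, *Mettl17*, *Pcp4l1* and *Pllp*, with r of 0.976 to 0.989 over 8 libraries, and 243 genes had an absolute r over 0.9.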
